A study of Mus musculus with 2 samples.

Results

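A set of 56 genes of the endoplasmic reticulum (ER), which fold, export and survey secreted proteins, was examined in Sox9GFPHi chondrospheres. The members were taken by gene symbol and all 56 were found among the 23628 genes listed. They comprise 8 collagen chaperones, 7 general chaperones, 12 genes of the translocon, 11 genes of COPII export and 18 genes of the unfolded protein response. The data are RNA-sequencing of 2 libraries of 1 condition, named replicate 1 and replicate 2. The cells came from femoral heads of homozygous Sox9 IRES-EGFP reporter pups at postnatal day 7, without any other treatment group. They were sorted as GFP-high cells negative for CD31, Ter119 and CD45, and grown at low density as single-cell-derived colonies. Colonies grew in methylcellulose under low oxygen in Maintenance Media with serum, FGF2, BMP4, IGF1, LIF and TGF-β1. Pups were harvested separately in this study, but whether each library represents 1 pup is not given in the sources used here, so the spread between the libraries may be partly technical.

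Proteins bound for secretion enter the ER through the SEC61 channel, lose their signal peptide, fold with the help of lumenal chaperones and leave in vesicles coated by the COPII complex. Procollagen places special demands on this route, because its chains must be hydroxylated and held as a triple helix by dedicated chaperones, and its length exceeds that of a common COPII vesicle. When unfolded protein accumulates, the sensors IRE1, PERK and ATF6 start the unfolded protein response, which raises chaperones and degradation factors. Chondrocytes secrete collagen II in large amounts, and loss of the ER factor CREB3L2 or of the coat protein SEC23A is known to disturb cartilage or craniofacial skeleton.

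Values are counts-per-million (CPM), the reads of a gene scaled to a common total per library. Pairs of values are given for replicate 1 first and replicate 2 second. The steps between the lowest values imply 43300000 reads in replicate 1 and 42200000 in replicate 2, so that 3 reads correspond to 0.0693 and 0.0712 CPM. The 10 highest genes took 43.4% of replicate 1 and 34.7% of replicate 2. Over the 12631 genes averaging 1 CPM or more, replicate 2 exceeded replicate 1 by a median of 0.30 on the log2 scale, and all differences between the libraries below are given relative to that median. They are on the scale of log2(CPM + 0.1). The chondrocyte genes *Sox9*, *Col2a1* and *Acan* stood at 252, 148953 and 14170 CPM in the first library and at 279, 100682 and 12002 CPM in the second. Of the 7 chondrocyte markers examined, 6 lay below the median of all genes in replicate 2, where 50% of genes do by construction. The median log2 difference of the 7 was -0.54. Past 2-fold lower were *Matn3*, with 741 and 53.1 CPM and a log2 difference of -4.10, and *Col9a1*, with 1881 and 1087 CPM and -1.09. The 4 endothelial markers together reached 0.231 and 0.166 CPM, with *Cdh5*, *Kdr* and *Tie1* at 0 in both libraries, and the 4 leukocyte markers reached 3.26 and 3.50 CPM. The 4 erythroid markers reached 0.0930 and 0.120 CPM. The 4 fibroblast markers summed to 2.40 and 2.86 CPM, with *Pi16* at 0. Plasma cells, which also carry a large ER, had *Mzb1* at 0.0231 CPM in replicate 1 and 0 in replicate 2, whereas *Sdc1*, which chondrocytes can also express, had 139 and 154 CPM. Of the 4 osteoclast markers, *Dcstamp* and *Ocstamp* were at 0 in both libraries, *Ctsk* had 111 and 144 CPM, and *Acp5* had 6.07 and 0.712 CPM, a log2 difference of -3.23.

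Together the 56 members accounted for 1.54% of replicate 1 and 1.98% of replicate 2. A level of 100 CPM or more on average was reached by 37 of the 56, where 4.65% of all genes listed reached it. Their means covered a 445-fold range, from 5.75 CPM for *Sec61g* to 2557 CPM for *Serpinh1*, which ranked 28 of all genes. The collagen chaperones held 39.3% of the members' summed CPM in replicate 1 and 36.2% in replicate 2, the largest share of the 5 groups in both. The general chaperones held 24.6% and 29.4%. The order of these 2 groups depends on counting *P4hb*, at 1429 and 1813 CPM, as a collagen chaperone. Its product is also a protein disulfide isomerase, and with *P4hb* among the general chaperones that group would be the larger in both libraries. The unfolded protein response held 14.2% and 13.2%, the translocon 12.1% and 11.7%, and COPII export 9.79% and 9.41%.

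**Figure D1:**
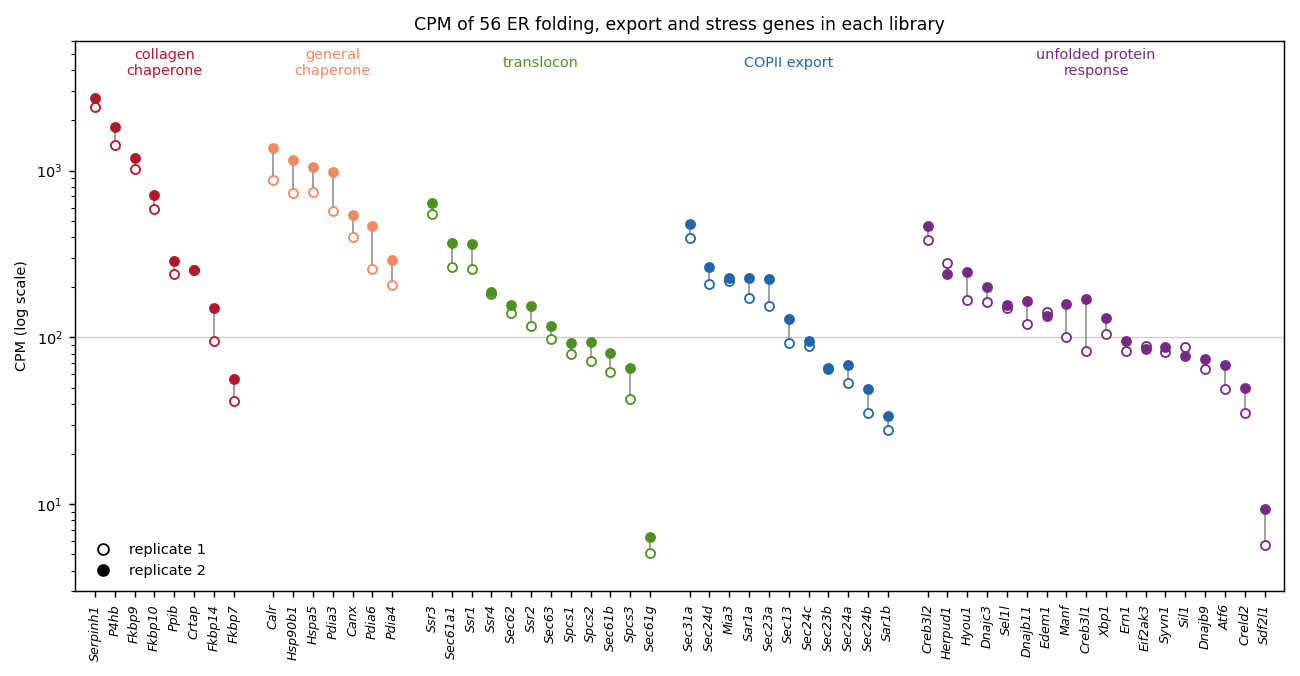
CPM of each of the 56 members on a log axis, with open circles for replicate 1 and filled circles for replicate 2, joined by a grey line and sorted by mean within the 5 groups. The grey horizontal line marks 100 CPM; *Serpinh1* at 2403 and 2712 CPM stands highest, and *Sec61g* at 5.11 and 6.39 CPM lowest.

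Differences between the libraries were small for these genes. After centring on the median of all genes, 0 of the 56 members were past 2-fold in either direction, where 13.5% of genes averaging 1 CPM or more were, and 7.15% of those averaging 10 CPM or more. After centring, 31 members lay above and 25 below the median of all genes, where 50% lie above it by construction. The median absolute log2 difference was 0.17 over the members and 0.30 over all genes averaging 1 CPM or more. The members had a median of 145 CPM, and no value for genes of like level was computed. How far the small differences follow from level was therefore not tested. The median signed difference of the members was 0.03, with a range from -0.52 to 0.73. In counting error alone, the log2 difference of a member is uncertain by 0.0062 to 0.13 (1 standard error). By more than 2 of these errors, 44 of the 56 members differed. The share of all genes that did so was not computed, so this count says nothing particular about the members. As the 2 libraries share 1 condition, no test between groups was possible and no p-value is given. Without centring, 52 of the 56 members had the higher CPM in replicate 2, where 74.3% of genes averaging 1 CPM or more did and 80.1% of those averaging 10 CPM or more. On that scale 1 member, *Creb3l1*, was past 2-fold higher, where 11.4% of genes were.

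Among the collagen chaperones, *Serpinh1* stood first. It encodes HSP47, which binds the folded collagen triple helix, and spans bases 99345376 to 99353239 of chromosome 7 (GRCm38). It had 2403 and 2712 CPM. *P4hb*, the gene of protein disulfide isomerase, which is also the beta subunit of collagen prolyl 4-hydroxylase, had 1429 and 1813 CPM. *Serpinh1* and *P4hb* together made up 63.1% of the group's summed mean. The peptidyl-prolyl isomerase gene *Fkbp9* followed at 1016 and 1189 CPM. *Fkbp10*, whose product FKBP65 assists procollagen folding and whose loss causes brittle bones, had 590 and 712 CPM. All 4 genes lay within 0.13 log2 units of the median of all genes between the libraries.

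The remaining collagen chaperones had lower CPM. *Crtap* and *Ppib* encode 2 partners of the prolyl 3-hydroxylation complex. *Crtap* had 252 and 254 CPM, and *Ppib* had 238 and 288 CPM. *Fkbp14*, which encodes an isomerase of collagen III and other collagens, had 95.0 and 150 CPM, the largest difference of the group at a log2 of 0.35. *Fkbp7* had the lowest CPM of the group, at 49.2 ± 10.5 CPM (SD, n = 2). Levels of different genes can be compared only per length. Per kb of annotated exon, *Serpinh1* was measured at 1047 ± 89.4 CPM per kb (SD, n = 2), and it exceeded *Fkbp10* by a log2 ratio of 2.29 in replicate 1 and 2.19 in replicate 2. *P4hb* came second at 567 ± 95.0 CPM per kb and *Fkbp9* next at 333 ± 37.0 CPM per kb (SD, n = 2 each). Each of the 8 genes lay above the next by a mean log2 ratio larger than its SD over the 2 libraries, and such differences are called larger than the spread below. The place of *Ppib* depended on the length used, at 79.6 CPM per kb of exon but 295 CPM per kb of its longest coding transcript. Part of the exonic bases of *Ppib* overlap exons of the antisense gene *Snx22*, and whether the counting used the strand is not given in the sources used here.

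The ratio of a chaperone to its client within 1 library does not depend on scaling. Per kb of exon, *Col2a1* exceeded *Serpinh1* 16.4-fold in replicate 1 and 9.81-fold in replicate 2. It exceeded *P4hb* 32.3-fold and 17.2-fold. Both ratios were smaller in replicate 2, where *Col2a1* itself was lower by 0.87 log2 units relative to the median of all genes. The log2 ratio of *Serpinh1* to *Col2a1* was -3.66 ± 0.52, and that of *P4hb* to *Col2a1* was -4.56 ± 0.64 (SD, n = 2 each). For *Hspa5* it was -5.99 ± 0.75 (SD, n = 2). For *Mia3*, which encodes the procollagen export receptor TANGO1, it was -8.05 ± 0.45 (SD, n = 2), a value that is uncertain because the 4431 exonic bases annotated for *Mia3* in GENCODE M21 may be incomplete.

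The general chaperones formed the only one of the 5 groups in which every gene lay above the median of all genes in replicate 2, where 50% of genes do by construction. The median log2 difference of the 7 genes was 0.32, with a range from 0.13 to 0.54. Over the same libraries the 7 chondrocyte markers summed to 172786 and 120441 CPM, and their part in this shift was not tested. The calcium-binding lectin gene *Calr*, encoding calreticulin, had 881 and 1357 CPM. *Hsp90b1*, the ER member of the HSP90 family, had 736 and 1164 CPM. *Hspa5*, which encodes BiP, the ER HSP70 that also restrains the stress sensors, had 742 and 1045 CPM. These 3 genes were all higher in replicate 2.

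The protein disulfide isomerases spread further. *Pdia6* had 257 and 462 CPM, the largest difference of the group. *Pdia3*, the isomerase that works with calreticulin and calnexin, had 573 and 975 CPM. *Pdia4* had the lowest CPM of the general chaperones, at 207 and 289 CPM. *Canx*, the membrane-bound lectin calnexin, had 397 and 538 CPM and the smallest difference, a log2 of 0.13. Per kb of exon, *Calr* exceeded *Canx* 3.62-fold and 4.11-fold, and the mean of this ratio was 1.95 ± 0.13 on the log2 scale (SD, n = 2). *Hspa5* lay slightly below *Hsp90b1*, with a log2 ratio per kb of exon of -0.14 ± 0.12 (SD, n = 2), a mean just larger than the spread. Per kb of the longest coding transcript the ratio was -0.45 ± 0.12 (SD, n = 2). *Pdia3* and *Hsp90b1* did not differ per kb of exon by more than their spread, nor did *Canx* and *Pdia6*. Per kb of the longest coding transcript both pairs did. There *Hsp90b1* stood at 336 against 279 CPM per kb for *Pdia3*, and *Pdia6* at 165 against 109 for *Canx*. Of the exonic bases of *Hsp90b1*, 15.7% overlap exons of other genes.

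The promoters of many of these chaperones carry a shared sequence, which is shown here because it marks known targets of the unfolded protein response among the members. The ER stress element (ERSE) is the site through which ATF6, together with NF-Y, acts on chaperone genes. It was first described in promoters of this kind, so its presence in these genes is background and not a result of the libraries. Windows from 250 bases before to 50 bases after the RefSeq gene start (RefSeq, GRCm38.p6) matched 47 of the 56 members, and 3 of these had 2 windows. The 9 others were *Fkbp10*, *Sec61a1*, *Ssr2*, *Spcs3*, *Atf6*, *Creb3l1*, *Hyou1*, *Manf* and *Sil1*. Searched on both strands as CCAAT followed after any 9 bases by CCACG, the ERSE was found in 8 of the 47 members (17.0%) and in 37 of all 27025 genes with a window (0.137%). The members were 5 of the 7 general chaperones and 3 of the 13 genes of the unfolded protein response with a window, and 0 of the 27 members of the other groups. Each match is printed below in the direction of the motif with 10 bases on either side, and capitals mark the fixed letters of the ERSE.
Hspa5 (chr2:34772015-34772053, plus strand): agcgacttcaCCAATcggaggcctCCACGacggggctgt
Hsp90b1 (chr10:86705628-86705666, minus strand): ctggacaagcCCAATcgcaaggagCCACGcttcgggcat
Hsp90b1 (chr10:86705523-86705561, plus strand): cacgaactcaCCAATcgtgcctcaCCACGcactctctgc
Calr (chr8:84847065-84847103, plus strand): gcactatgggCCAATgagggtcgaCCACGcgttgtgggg
Canx (chr11:50325790-50325828, minus strand): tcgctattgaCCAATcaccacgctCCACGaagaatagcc
Pdia6 (chr12:17266481-17266519, plus strand): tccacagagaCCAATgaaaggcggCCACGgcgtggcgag
Dnajc3 (chr14:118937817-118937855, plus strand): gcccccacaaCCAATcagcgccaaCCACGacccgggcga
Creld2 (chr15:88819510-88819548, minus strand): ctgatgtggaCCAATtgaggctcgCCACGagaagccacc
Syvn1 (chr19:6046522-6046560, plus strand): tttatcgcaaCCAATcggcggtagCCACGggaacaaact

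The window of *Hspa5* before its RefSeq start holds 1 exact ERSE, 47 to 65 bases upstream of the start, and it is given in full with the fixed letters of the element in capitals. GENCODE M21 places an earlier start of *Hspa5* at 34771970 on chromosome 2, inside this window.
Hspa5 (chr2:34771840-34772089, plus strand): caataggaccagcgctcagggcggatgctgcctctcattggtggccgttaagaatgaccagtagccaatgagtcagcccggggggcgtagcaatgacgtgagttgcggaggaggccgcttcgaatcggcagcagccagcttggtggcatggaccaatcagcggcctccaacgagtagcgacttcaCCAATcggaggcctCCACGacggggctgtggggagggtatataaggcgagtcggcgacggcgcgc

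A shorter variant, ERSE-II, searched on both strands as ATTGG and CCACG with any base between them, was found in the windows of *Herpud1* and *Dnajb11* and in 0.0444% of all genes with a window. Capitals again mark the fixed letters.
Herpud1 (chr8:94386367-94386397, plus strand): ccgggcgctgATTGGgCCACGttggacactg
Dnajb11 (chr16:22857842-22857872, plus strand): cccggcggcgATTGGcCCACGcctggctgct

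The XBP1-type element UPRE, searched as TGACGTGG on both strands, was found in 0.714% of all genes and in 2 members, both of them genes of the inner COPII coat. CREB3L2 is known to act through a related site on *Sec23a* in chondrocytes. Capitals mark the motif, which overlaps neither of the other motifs in these windows.
Sec23a (chr12:59011994-59012021, minus strand): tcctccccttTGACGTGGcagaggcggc
Sec24d (chr3:123267460-123267487, plus strand): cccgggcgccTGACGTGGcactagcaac

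The 10 members with an ERSE or ERSE-II lay on both sides of the median of all genes, from a log2 difference of -0.52 for *Herpud1* to 0.54 for *Pdia6*. As 5 of the 10 are general chaperones, nothing about the motif can be read from their levels. A match of letters does not show that a factor binds there.

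**Figure D2:**
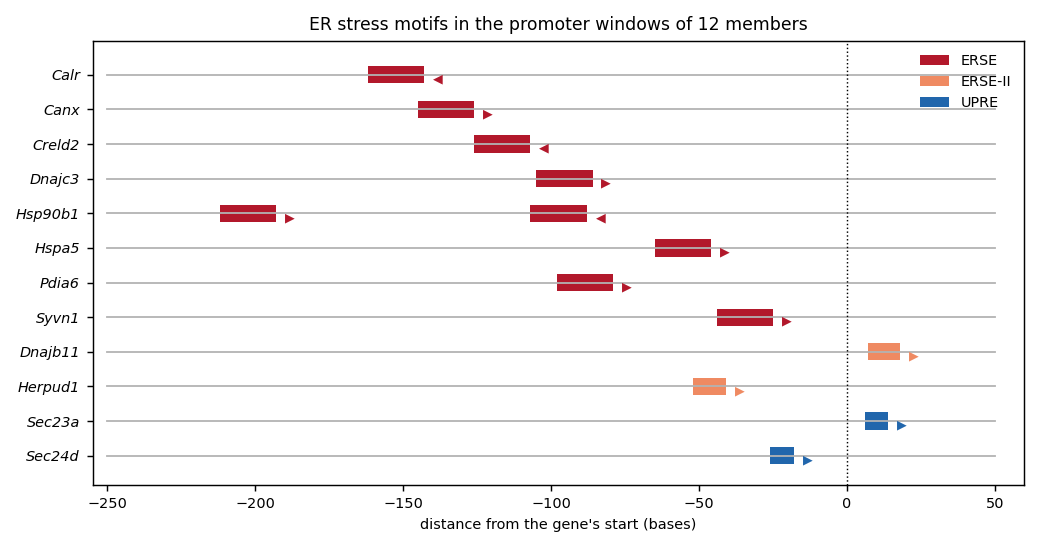
Position of each motif match, in bases from the RefSeq gene start (dotted line), in the 300-base windows of the 12 members with a match; bars span the match and arrowheads point in the direction of the motif, to the right where it reads along the gene. All 9 ERSE matches lie upstream of the start, between 212 and 26 bases from it, while the matches of *Dnajb11* and *Sec23a* lie just after it.

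The translocon genes showed no common shift between the libraries, with a median log2 difference of 0.04 and a range from -0.27 to 0.30. *Sec61a1*, the channel subunit that forms the pore, lies on chromosome 6 from 88503579 to 88518905 and had 266 and 368 CPM. The small subunit gene *Sec61b* had 62.0 and 80.0 CPM. *Sec61g*, the other small subunit, had only 5.11 and 6.39 CPM. The level of *Sec61g* per kb of exon, 2.07 and 2.59 CPM per kb, was far below the 48.8 and 63.0 of *Sec61b* and the 39.5 and 54.7 of *Sec61a1*, although the 3 proteins occur in 1 complex. For both small subunits the level is uncertain, because 41.0% of the 50-base stretches of *Sec61b* and 20.5% of those of *Sec61g* also occur in transcripts of other genes, and the authors' counting can divide such reads. These percentages are taken over the longest coding transcripts, of 564 bases for *Sec61b* and 1862 bases for *Sec61g*, so they cannot be compared directly.

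*Sec62* and *Sec63*, the channel partners for import after translation, had 140 and 98.4 CPM in replicate 1 and 156 and 117 CPM in replicate 2. In the translocon-associated TRAP complex, *Ssr3* had 549 and 640 CPM. *Ssr1* had 258 and 363 CPM, *Ssr4* 182 and 187 CPM, and *Ssr2* 117 and 155 CPM. Division by length changed the order of TRAP genes, since *Ssr4* reached 231 CPM per kb of its longest coding transcript against 201 for *Ssr3*, but 59.7 against 142 per kb of exon. The signal peptidase genes *Spcs1*, *Spcs2* and *Spcs3* had means of 85.6 ± 9.31, 82.9 ± 14.6 and 54.2 ± 15.9 CPM (SD, n = 2 each). Per kb of exon, *Spcs1* at 55.4 CPM per kb did not differ from *Sec61b* by more than the spread, and *Spcs2* and *Spcs3* stood at 19.6 and 15.6 CPM per kb. Per kb of the longest coding transcript, *Spcs1* stood at 85.0 and *Sec61b* at 126 CPM per kb.

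In COPII export, 1 paralog of each family was higher than the others. SAR1 is the GTPase that starts coat assembly, SEC23 and SEC24 form the inner coat that selects cargo, and SEC13 and SEC31 form the outer cage. *Sec24d*, whose mutation causes a brittle bone syndrome, had 209 and 264 CPM. Per kb of exon it exceeded *Sec24a* by a log2 ratio of 2.71 ± 0.01, or 6.56-fold, and *Sec24c* by 1.35 ± 0.17, or 2.54-fold (SD, n = 2 each). *Sec24b* had 35.4 and 49.3 CPM and stood at 7.03 ± 1.64 CPM per kb of exon against 5.70 ± 0.982 for *Sec24a* (SD, n = 2 each), an order that turned round when the longest coding transcript gave the length. *Sec24d* was thus the highest of the 4 SEC24 genes in both libraries.

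The same held for the other paralog pairs. *Sec23a*, the gene mutated in craniolenticulosutural dysplasia, lies on chromosome 12 from 58958383 to 59012017 and had 155 and 223 CPM. *Sec23b* had 64.2 and 65.8 CPM. Their log2 ratio per kb of exon was 1.65 in replicate 1 and 2.14 in replicate 2, and its mean of 1.90 ± 0.35 (SD, n = 2) was larger than the spread. Per kb of the longest coding transcript the mean was 0.95, in the same direction. *Sar1a* had 173 and 228 CPM and *Sar1b* 27.9 and 33.6 CPM, a log2 ratio per kb of exon of 1.12 ± 0.09 (SD, n = 2).

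The outer coat gene *Sec31a* had 394 and 481 CPM, and *Sec13* had 92.1 and 128 CPM. *Mia3* had 217 and 227 CPM. After division by exonic length, *Sec31a*, *Sar1a* and *Mia3* lay within 50.1 to 55.5 CPM per kb, and neighbours in that order did not differ by more than their spread. Per kb of the longest coding transcript, *Sec31a* came first at 103 CPM per kb, above *Sec13* at 81.4 by more than the spread. *Sar1a* at 76.7 and *Mia3* at 75.0 again did not differ by more than it. The place of *Mia3* rests on its possibly incomplete annotated length. Between the libraries the 11 genes had a median log2 difference of 0.03, from -0.27 for *Sec23b* to 0.22 for *Sec23a*.

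**Figure D3:**
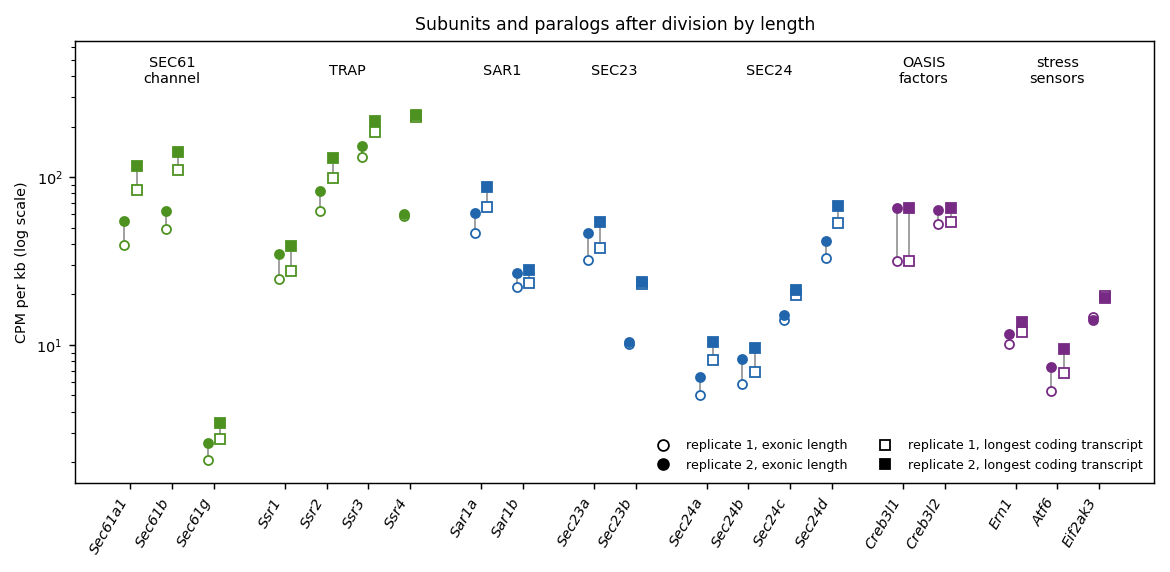
CPM per kb on a log axis for subunits and paralogs, with open symbols for replicate 1 and filled symbols for replicate 2, circles for division by exonic length and squares for division by the longest coding transcript. *Sec61g* lies below the other channel subunits and *Sec24d* above the other SEC24 genes under both lengths, whereas *Creb3l1* and *Creb3l2* meet in replicate 2.

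Among the transducers of the unfolded protein response, the OASIS-type factor gene *Creb3l2* had 383 and 463 CPM. Its product is cleaved in the Golgi and drives secretory genes in chondrocytes. *Creb3l1*, on chromosome 2 from 91982328 to 92024502, encodes the related factor OASIS, which is known from osteoblasts as an activator of *Col1a1*. It had 82.8 and 170 CPM. This log2 difference of 0.73 was the largest among the 56 members. It lay between the 10th and 90th percentile of genes averaging 1 CPM or more, -0.73 and 0.79. Per kb of exon *Creb3l2* exceeded *Creb3l1* by a log2 ratio of 0.73 in replicate 1 but lay at -0.04 in replicate 2, so their order was not settled by these libraries. The 4 osteoblast markers had a sum of 5.48 and 11.9 CPM, which *Sp7* carried with 1.96 and 6.81 CPM, a log2 difference of 1.44. *Bglap* lay near the floor at 0.0787 and 0.229 CPM, and *Ibsp* and *Bglap2* had log2 differences of 0.22 and 0.05. Past 2-fold higher was 1 of the 4, where 7.43% of genes averaging 1 CPM or more were. Their part in the difference of *Creb3l1* was not tested.

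The 3 stress sensors ranged from 49.0 to 94.9 CPM. *Ern1*, which encodes IRE1, had 82.9 and 94.9 CPM, *Eif2ak3*, which encodes PERK, had 88.2 and 85.3 CPM, and *Atf6* had 49.0 and 68.2 CPM. Per kb of exon *Eif2ak3* came first at 14.4 ± 0.338, then *Ern1* at 10.9 ± 1.04 and *Atf6* at 6.35 ± 1.47 CPM per kb (SD, n = 2 each), each above the next by more than the spread. *Xbp1*, whose mRNA is spliced by IRE1, had 104 and 131 CPM. Values per gene do not separate its spliced from its unspliced mRNA, so IRE1 activity was not measured.

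The target genes of the response did not move as 1 block. Of the 18 genes of the unfolded protein response, 8 lay above and 10 below the median of all genes. Their median log2 difference was -0.015. The 8 cochaperones and folding targets had a median log2 difference of 0.17. Of these 8, 5 lay above the median of all genes, where 50% of genes do by construction. *Hyou1*, the ER HSP110 that serves as exchange factor of BiP, had 167 and 246 CPM. *Manf*, a small secreted stress protein, had 101 and 159 CPM. *Sil1*, another exchange factor of BiP, differed in the opposite direction, with 87.3 and 77.1 CPM. *Sdf2l1* had the lowest CPM of the response, at 5.68 and 9.37 CPM. The J-domain genes *Dnajc3*, *Dnajb11* and *Dnajb9* had means of 182 ± 27.0, 143 ± 31.4 and 69.6 ± 6.96 CPM, and *Creld2* of 42.2 ± 10.2 CPM (SD, n = 2 each).

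All 4 degradation genes lay below the median of all genes in replicate 2, where 50% of genes do by construction. Their median log2 difference was -0.32. *Herpud1*, which organizes the ubiquitin ligase complex of the ER membrane, had 280 and 241 CPM, the lowest log2 difference of all members at -0.52. *Edem1*, which hands misfolded glycoproteins to degradation, had 143 and 134 CPM. *Sel1l* and *Syvn1*, which encode the adaptor and the ubiquitin ligase itself, had 149 and 81.9 CPM in replicate 1 and 156 and 87.0 CPM in replicate 2. In CPM as deposited, *Herpud1* and *Edem1* were therefore lower and *Sel1l* and *Syvn1* higher in replicate 2, and the common direction of the 4 holds only relative to all genes. Of 9 other degradation genes averaging 1 CPM or more, which are not members, 5 lay above and 4 below the median of all genes.

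**Figure D4:**
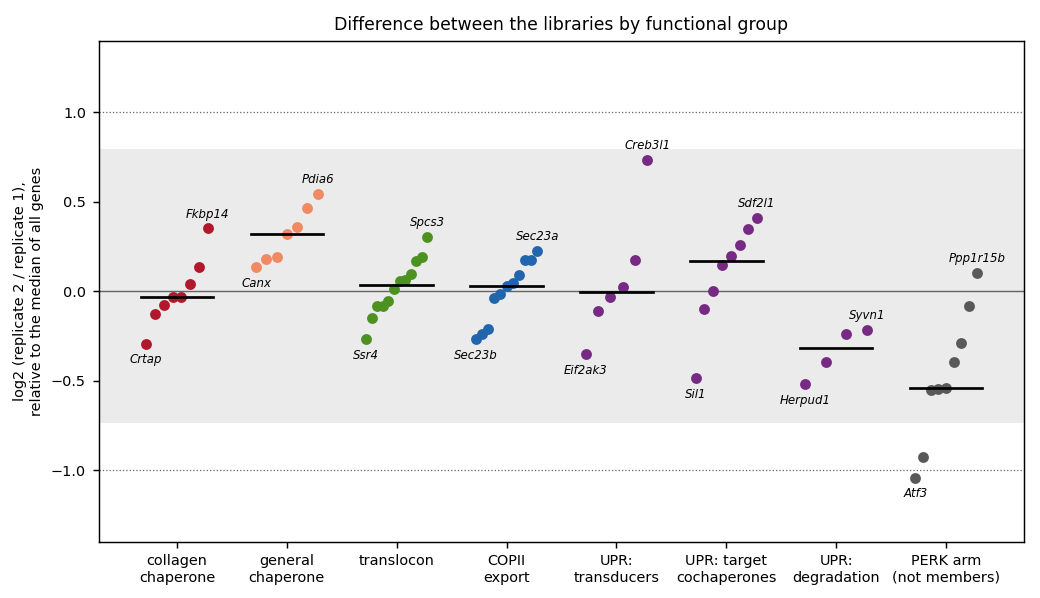
Centred log2 ratio of the second to the first library, with the median of all genes at 0, for each member (points) by functional group, with black bars for group medians and labels for the lowest and highest gene; UPR stands for unfolded protein response. The grey band spans the 10th to 90th percentile of genes averaging 1 CPM or more, from -0.73 to 0.79, and dotted lines mark 2-fold. The general chaperones lie above 0, while the degradation genes among the members lie below it. Most genes of the PERK arm, the only list of non-members drawn, also lie below it.

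Other genes of the pathway, which are not members, were read from a list of 92 symbols, of which 89 were listed and 86 averaged 1 CPM or more. Past 2-fold after centring were 2 of these 86 in the higher and 1 in the lower direction, where 7.43% and 6.06% of all genes were. Their median log2 difference was -0.03. The list called the PERK arm holds 9 genes linked to the translation factor eIF2, on which PERK acts. Their dependence on PERK was not tested. Of the 9, 8 lay below the median of all genes in replicate 2, where 50% of genes do by construction. The median log2 difference of the 9 was -0.54. *Atf4*, the transcription factor of this arm, had 431 and 406 CPM. *Ddit3*, which encodes the death-linked factor CHOP, had 58.0 and 48.9 CPM. *Ppp1r15a*, which encodes the phosphatase subunit GADD34, had 122 and 79.5 CPM. *Ppp1r15b* alone of the 9 lay above the median of all genes, with 47.2 and 62.7 CPM. Whether this arm and the general chaperones differed from each other was not tested.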

How the data were processed

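Sox9GFPHi chondrospheres were profiled in 2 libraries by stranded poly(A) RNA-sequencing. Per the paper's methods, the authors used STAR 2.7.3a to align single-end reads to GRCm38 (GENCODE M25), quantified genes with Partek E/M in Partek Flow 10.0.21.0801 and deposited counts-per-million (CPM) values. An offset of 0.0001 CPM in every deposited value was subtracted. As 68.2% and 66.6% of low values (up to 20 reads) were within 0.05 of a whole number of reads, read counts could not be rebuilt and count models were not used. Intervals and floors cover counting error only.

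The mean and SD of both libraries were computed per gene. Log2 ratios used a pseudocount of 0.1 CPM, which understates differences of low genes, and were centred on the median of genes averaging 1 CPM or more. Lengths, coordinates and shared 50-base stretches came from GENCODE M21 on GRCm38, where 22967 of 23628 genes (97.2%) matched once, and promoter windows from RefSeq. A difference was set beside the SD of the 2 libraries, without a test. All members were accounted for, and genes named in each group include its highest and lowest. The members and lists were chosen with earlier results of these data known. Alternatives covered scaling, centring, pseudocount, filter, length and leaving out each library, and the share of genes past 2-fold above 10 CPM was added after seeing the data. The computation was tested on simulated data. Planned protein features were not analysed here. Python 3.11.15, numpy 2.4.6, pandas 2.3.3 and matplotlib 3.10.9 were used.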

Additional observations from a re-analysis of the deposited data

How the results depend on the processing

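Changing 1 choice at a time gave 754 recomputed values of 140 results. They stayed within a spread between the libraries, or within 1.5 times for a count, in 606 instances and left it in 148. Turned signs were counted only for ratios between 2 genes that exceeded their spread, and there were 0. Centred log2 differences could turn sign uncounted, as for *Crtap*, from -0.29 to 0.01 without centring. They were all set against 1 spread of 0.18 log2 units taken over the members. Leaving out the centring shifted all genes nearly alike and moved every such difference, so these counts largely repeat the same shifts. For a mean, leaving out 1 of 2 libraries cannot move it past 1 SD, which applies to many of the 150 values of that kind. The members' share of the library was 2.87% once the 10 highest genes were taken out of the total, as a smaller total requires. Without centring, the median log2 difference of the members was 0.34 and 1 member, *Creb3l1*, was past 2-fold. Centring on all genes above 0 left 37 members above and 19 below the median of all genes, against 31 and 25 in the main setting, and leaving out the 10 highest genes without centring left 42 above and 14 below.

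Division by length moved the shares of the groups. Per exonic length the collagen chaperones held 46.6% of the members' sum, the translocon 10.4%, COPII export 6.29% and the unfolded protein response 10.9%, and per longest coding transcript 41.9%, 14.5%, 7.76% and 10.5%. Without division by length, the log2 ratio was 1.52 for *Sec23a* to *Sec23b*, 1.96 for *Sec24d* to *Sec24a*, 2.697 for *Sar1a* to *Sar1b*, 1.83 for *Creb3l2* to *Creb3l1*, 1.24 for *Calr* to *Canx* and 1.98 for *Serpinh1* to *Fkbp10*. It was -5.58, -6.25, -7.12 and -9.11 for *Serpinh1*, *P4hb*, *Hspa5* and *Mia3* to *Col2a1*. With the longest coding transcript it was 0.95 for *Sec23a* to *Sec23b*, 1.55 for *Sec24d* to *Sec24c*, 1.58 for *Sar1a* to *Sar1b*, -0.45 for *Hspa5* to *Hsp90b1*, 2.21 for *Calr* to *Canx*, 2.16 for *Serpinh1* to *Fkbp10*, -4.42 for *Serpinh1* to *Col2a1* and -5.41 for *P4hb* to *Col2a1*. Lengths come from an earlier annotation release than the authors used. No paired analysis was possible because both libraries belong to 1 group.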

Other observations

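Outside the 56 members, collagen-modifying enzymes of the ER were abundant in both libraries. The 12 genes of this list had a median of 306 CPM. Of the 12, 9 lay below the median of all genes in replicate 2, where 50% of genes do by construction. *Plod2*, which encodes a collagen lysyl hydroxylase, had 972 and 877 CPM. *P3h1*, whose product works with CRTAP and PPIB, had 410 and 362 CPM. *P4ha1*, which encodes an alpha subunit that pairs with P4HB, had 588 and 708 CPM, a log2 difference of -0.04 relative to the median of all genes. Its paralog *P4ha2* had 558 and 502 CPM, a log2 difference of -0.46. *P4ha3* had 31.6 and 96.7 CPM, a log2 difference of 1.31.

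*Fkbp11*, an isomerase gene of secretory cells, had 9.82 and 39.8 CPM, a log2 difference of 1.70, which was larger than that of any member. *Atf3*, a stress-induced transcription factor gene, had 9.80 and 5.84 CPM, a log2 difference of -1.04. Among the transducers, *Creb3l3* and *Creb3l4* had means of 0.128 and 0.387 CPM, and the degradation gene *Derl3* of 0.501 CPM. *Ero1l*, the oxidase that recharges disulfide isomerases, had 142 and 146 CPM, whereas its paralog *Ero1lb* had 3.63 and 3.65 CPM. The 18 genes for export and retrieval had a median log2 difference of -0.03, the 20 for targeting and glycosylation of 0.06, the 14 listed for folding of 0.10, and the 9 for degradation averaging 1 CPM or more of 0.06.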
